A study of Mus musculus with 32 samples.

Results

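The 10 genes described here carry signals of the tumour necrosis factor (TNF) superfamily to the transcription factor NF-κB, and they were taken by name from the 33397 genes of the table. They are the ligands Tnf and Tnfsf12 (TWEAK), the receptors Tnfrsf1a (TNF receptor 1) and Tnfrsf12a (Fn14), the NF-κB subunits Rela, Nfkb1, Relb and Nfkb2, the inhibitor Nfkbia (IκBα) and its nuclear relative Bcl3. RNA was sequenced from the gastrocnemius (GAS), a calf muscle, of young adult male C57BL/6 mice (C57BL/6J in the study's methods) at 0, 1, 3, 5, 7, 14, 21 and 28 d after the sciatic nerve was cut, in 8 groups of 4 samples. The labels list nerve transection for every sample, 0 d included. The 0 d samples served as the reference here, and the labels do not say whether they had a sham operation. The study describes a sham group, operated without cutting the nerve, as its nondenervated reference for sequencing, but neither the labels nor the methods tie that group to the 0 d samples. The labels list no altered allele or drug for any group, and the methods name isoflurane and the analgesic buprenorphine at surgery. A bulk muscle holds fibres, immune cells, vessels, connective tissue and nerve, and in such samples fewer cells of a type and less RNA per cell cannot be told apart.

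Recovered depth was 14199901 to 17561584 fragments per sample, and mitochondrial genes took 14.5% to 18.2% of them at 0 d against 6.70% to 17.1% later. FPKM scales a gene's fragments to exon length and to the sample total. The median log2 change against 0 d over the 11943 genes with higher levels was 0.12 to 0.32 at the 7 later time points. A label on RNA extraction speaks of retinas, yet the summed level of 9 photoreceptor markers was at most 1.98 FPKM and that of 10 fibre markers was 24270 FPKM or more in every sample. The fast troponin gene Tnnc2 was the exception among the fibre markers, at a mean of 0.832 to 1.37 FPKM. Sample 1 of 3 d stood apart from the other samples of its day, with a mean Pearson's r of 0.967 with them across genes, and values without it are given below. Sample numbers only name samples, and the p-values measure the spread between these samples, which the columns do not tie to individual animals.

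TNF and TWEAK are made mainly by immune and stromal cells and bind receptors on their targets. TNF receptor 1 acts mainly through the canonical arm of NF-κB, in which IκBα holds RelA and p50 (from Nfkb1) in the cytoplasm until IκBα is degraded. TWEAK and Fn14 can also engage the noncanonical arm, in which the kinase NIK (Map3k14) accumulates and the p100 protein of Nfkb2 is processed to p52, the partner of RelB. Fn14 is low in innervated muscle, is induced when the nerve is lost, and has been tied to muscle wasting, as has Bcl3, which joins p50 or p52 on DNA.

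The promoters of Nfkb2, Nfkbia and Bcl3 are shown because these members held a match to the NF-κB consensus motif (a κB site, searched on both strands) near a transcription start, and that of Tnfrsf12a is shown because it had the largest change without such a match. RefSeq (GRCm38.p6) gave a window of 300 bases, from 250 before to 50 after the start, for 7 of the 10 members, and 3 of the 7 held a match in any window. These members had 9 windows, since Nfkb2 had 3. Of all 32851 windows, 8.46% held a match, which is a description of letters and not of binding. That share counts windows, so the share of members cannot be set directly against it. Capitals mark the matches, including those that overlap on opposite strands. The Nfkb2 stretch lies at chr19:46304637-46304736 on the plus strand and ends at its first listed start, the Nfkbia stretch at chr12:55492648-55492747 on the minus strand, the Tnfrsf12a stretch at chr17:23677450-23677549 on the minus strand, and the Bcl3 stretch, which spans the start, at chr7:19822734-19822763 on the minus strand.
Nfkb2: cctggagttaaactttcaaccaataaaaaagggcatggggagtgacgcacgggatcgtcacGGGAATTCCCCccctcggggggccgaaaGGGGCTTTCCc
Nfkbia: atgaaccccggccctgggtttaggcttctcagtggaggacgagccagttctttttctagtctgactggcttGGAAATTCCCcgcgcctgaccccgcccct
Bcl3: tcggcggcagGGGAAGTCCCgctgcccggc
Tnfrsf12a: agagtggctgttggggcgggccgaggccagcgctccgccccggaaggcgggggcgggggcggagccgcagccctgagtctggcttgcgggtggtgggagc
The matches in the Nfkb2 stretch lay 39 and 11 bases before the first start and that of Nfkbia 29 bases before its start. That of Bcl3 began at base 3 of the transcript side, counted with the start base included. Windows at further starts of Nfkb2 also held matches, 236 bases before the second start, at base 11 counted from it in the same way, and 225 bases before the third. The last 2 of these are the same site.

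Differences between time points were tested with limma on log2(FPKM + 1) in a fit of all 32 samples and 22071 genes, and log2 changes below are on that scale, which understates changes of genes with low FPKM. A gene is called higher or lower where the Benjamini-Hochberg adjusted p was under 0.05 and the change at least 1.5-fold. Against 0 d, the numbers of members called higher at 1, 3, 5, 7, 14, 21 and 28 d were 5 (6.34% of all genes tested were called higher), 7 (13.2%), 6 (14.9%), 6 (15.4%), 6 (14.6%), 5 (11.8%) and 5 (14.2%). None was called lower by limma, or by limma-voom on recovered fragments, against 2.49%, 6.03%, 3.86%, 4.10%, 3.83%, 3.93% and 4.10% of all genes in the same order, and Nfkbia alone had an unadjusted p under 0.05 in that direction, at 5, 7, 14 and 21 d. The balance of calls depended on the scale. Of all calls 68.7% to 79.5% were higher as deposited, and 44.8% to 49.6% after median-ratio scaling, which sets the median change near 0. On that scale the members called higher numbered 4, 5, 5, 5, 5, 3 and 4 in the order of the time points. The share of all genes called higher was then 4.14% at 1 d and 6.43% to 7.15% from 5 d on, with 1987 of the 22071 genes at 3 d, and Nfkbia was called lower at 5, 7 and 14 d. The median log2 change of the 10 members was 0.61 at 1 d, 0.86 at 3 d and 0.65 at 28 d, beside 0.03, 0.06 and 0.14 over all genes tested. Tnfrsf1a, Tnfrsf12a, Rela and Bcl3 were called at all 7 time points, as were 1.92% of all genes, and Tnf, Tnfsf12 and Nfkb1 at none. The F test across the 8 groups passed for 8 members and for 63.2% of all genes, and the members that missed it were Tnf (adjusted p = 0.506) and Tnfsf12 (adjusted p = 0.187).

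**Figure D1:**
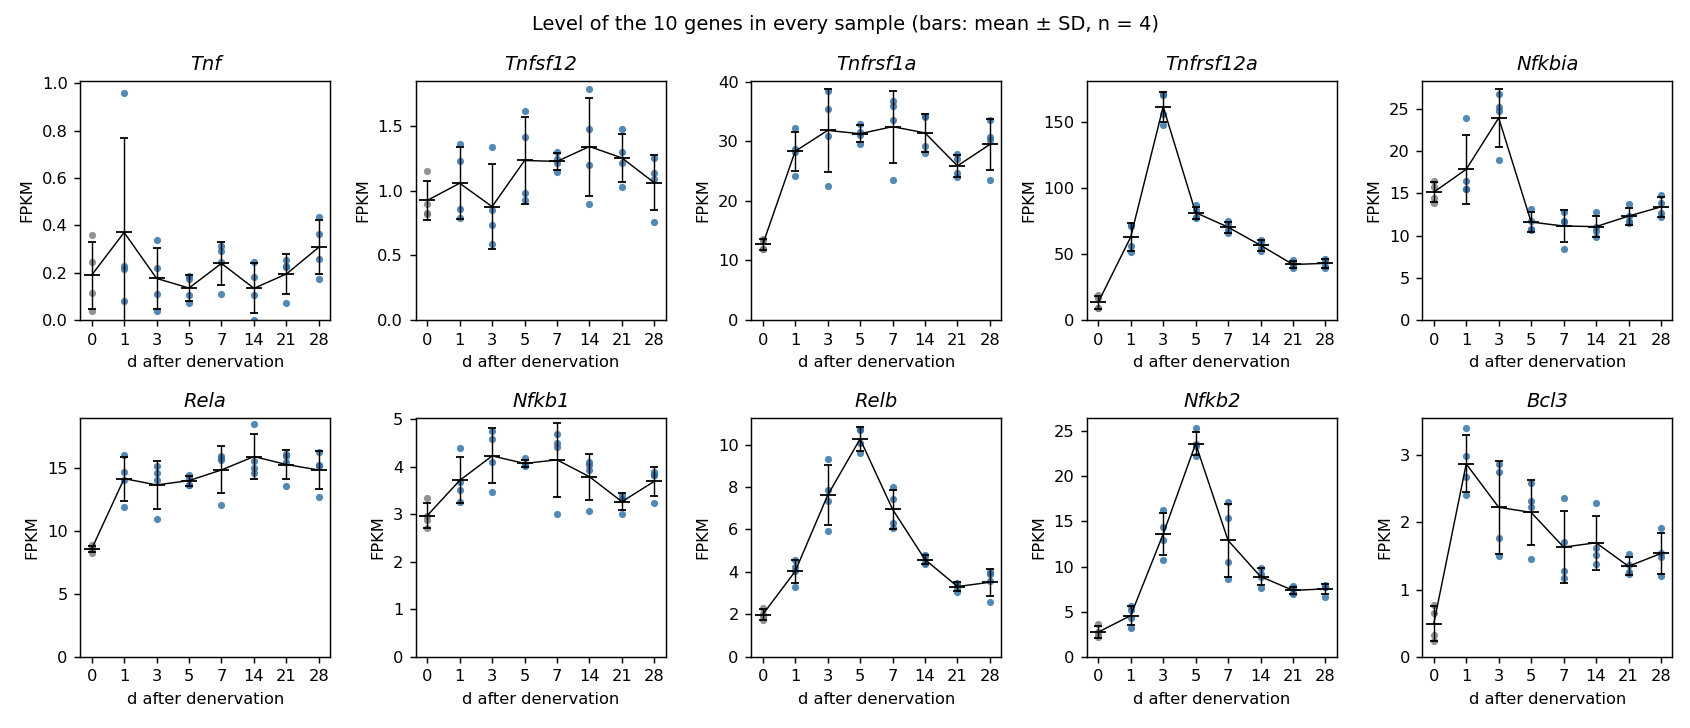
FPKM of each of the 10 genes (vertical axes, separate scales from 0) in every sample at 0 to 28 d (horizontal axis, grey points for 0 d and blue for later), with bars for the mean ± SD of 4 samples. Tnfrsf12a peaks at 3 d and Nfkb2 and Relb at 5 d, Rela and Tnfrsf1a stay on a plateau from 1 d on, and Nfkbia is highest at 3 d and below its 0 d mean from 5 d on.

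The ligands stood at low levels and neither was called at any time point. Tnf (chr17:35199381-35202007, GRCm38) was counted from only 0 to 26 fragments per sample. Its level was 0.190 ± 0.142 FPKM (SD, n = 4) at 0 d, and the later means lay between 0.134 FPKM at 14 d and 0.371 FPKM at 1 d. The 1 d mean rested on sample 4, at 0.961 FPKM, since the other 3 samples held 0.0793 to 0.227 FPKM. That sample also had the highest summed level of 8 neutrophil markers of any sample, 96.5 FPKM, against 9.06 to 51.9 FPKM in the other samples of 1 d, and the part of these cells in the Tnf value was not tested. No change of Tnf was detected, with log2 changes of -0.07 to 0.17 and a standard error of 0.12. The log2(FPKM + 1) scale understates changes at such levels, and with so few fragments a modest change could not be detected.

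Tnfsf12, the ligand of Fn14, lies at chr11:69686250-69695849 and held 15 to 45 fragments per sample. Its mean was 0.926 ± 0.153 FPKM at 0 d and 0.878 to 1.34 FPKM at the later time points, with its highest level at 14 d (log2 change 0.27 ± 0.12 SE, limma adjusted p = 0.0729). No neighbours in the order of its means were called different. Of its exon bases, 731 (48.3%) are shared with Tnfsfm13, a gene on the same strand that was listed at 0 to 0.274 FPKM. How shared fragments were assigned is not given in the sources used here, so the level of Tnfsf12 is uncertain.

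Tnfrsf12a, the Fn14 receptor, showed the largest change of the 10 genes, a rise to 12.0 times its 0 d mean at 3 d. The gene lies at chr17:23675445-23677468. At 0 d the 4 samples held 18.7, 16.9, 9.46 and 8.87 FPKM. At 1 d they held 72.4, 71.2, 56.5 and 51.9 FPKM, and at 3 d 157, 148, 171 and 171 FPKM. Every sample of 1 d lay above every sample of 0 d, and every sample of 3 d above every sample of 1 d. The level then fell to 78.5, 83.5, 77.1 and 87.0 FPKM at 5 d, which did not overlap with 3 d. It was 65.9 to 74.9 FPKM at 7 d and 52.3 to 60.8 FPKM at 14 d, and the 8 samples of 21 and 28 d held 39.2 to 46.2 FPKM. The lowest of these late samples was still above the highest sample of 0 d.

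The log2 change of Tnfrsf12a against 0 d was 2.20 ± 0.15 (SE) at 1 d, 3.56 ± 0.15 at 3 d (limma adjusted p = 1.33e-17) and 1.67 ± 0.15 at 28 d (adjusted p = 1.58e-10). Between time points, 3 d was above 1 d by 1.36 ± 0.15 (adjusted p = 1.6e-08) and 5 d was below 3 d by 0.98 on the log2 scale (adjusted p = 9.53e-06). In the order of its means, 3 d stood first and 0 d last, and the neighbours from 5 d through 7, 1, 14, 28 and 21 d were not called different. Time points further apart were: 21 d was called below 5 d (-0.94, limma adjusted p = 2.74e-05) and 7 d (-0.73, adjusted p = 0.00106), as was 28 d (-0.91 and -0.70). An exact two-sided permutation test of 4 against 4 samples gave p = 0.0286 for Tnfrsf12a at each of the 7 time points, the smallest it allows. Across the 32 samples the genes most like it in log2(FPKM + 1), of 11943, were Cat (catalase, r = 0.958), Txnl1 (a thioredoxin-like protein, r = 0.958) and Hspb1 (a small heat shock protein, r = 0.956). These coefficients share libraries and time points and are descriptions.

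Tnfrsf1a, which binds TNF, rose within 1 d and kept that level. It lies at chr6:125349362-125362484. The 4 samples of 0 d held 13.4, 11.9, 13.5 and 11.9 FPKM, and those of 1 d 28.2, 24.2, 28.7 and 32.2 FPKM. All later samples were between 22.5 and 38.4 FPKM, so none of them overlapped with 0 d. The log2 change was 1.10 ± 0.13 at 1 d (limma adjusted p = 1.53e-07), at its highest 1.27 ± 0.13 at 7 d and at its lowest 0.97 ± 0.13 at 21 d. No pair of neighbouring means among the 7 later time points was called different. The ratio of the receptor Tnfrsf12a to its ligand Tnfsf12 within each sample, in log2 of FPKM, had a mean of 3.80 at 0 d and 7.59 at 3 d, with the lowest sample of 3 d (6.79) above the highest of 0 d (4.38).

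Nfkb2, whose product p100 is the precursor of p52, changed most among the subunits and peaked later than the receptor. It lies at chr19:46304320-46312385. At 0 d its samples held 2.38, 2.70, 3.63 and 2.24 FPKM, and at 1 d 4.30, 3.16, 5.20 and 5.62 FPKM, which overlapped. At 3 d they held 12.9, 10.8, 16.3 and 14.4 FPKM, and at 5 d 23.5, 23.4, 25.3 and 22.2 FPKM. Each of these last steps separated the groups fully. The samples of 7 d were spread out, at 15.4, 17.1, 8.61 and 10.5 FPKM, while 14 d held 7.67 to 9.85 FPKM, 21 d 6.96 to 7.81 FPKM and 28 d 6.66 to 7.96 FPKM.

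Against 0 d the log2 change of Nfkb2 was 1.97 ± 0.16 at 3 d and 2.73 ± 0.16 at 5 d (limma adjusted p = 1.82e-14), 8.63 times the 0 d mean, and it was still 1.20 ± 0.16 at 28 d (adjusted p = 2.14e-07). At 1 d the difference of 0.57 ± 0.16 (adjusted p = 0.00541) was just under 1.5-fold. It passed that limit without sample 3 of 0 d (0.67) or without sample 2 of 1 d (0.70). The step from 1 to 3 d was 1.40 ± 0.16 (adjusted p = 2.76e-08) and that from 3 to 5 d was 0.77 ± 0.16 (adjusted p = 0.000431). From 5 to 7 d Nfkb2 fell by 0.87 on the log2 scale (adjusted p = 0.00155), a call that was lost when only these 2 groups were fitted (adjusted p = 0.0601). Its level at 28 d exceeded that at 1 d by 0.63 ± 0.16 (adjusted p = 0.00146), by 0.50 without sample 2 of 1 d and by 0.47 after median-ratio scaling, each of which ended that call. From 7 to 14 d the difference of -0.45 (adjusted p = 0.141) was not called, and without sample 3 of 7 d it was -0.61 (adjusted p = 0.0245) and was. Nfkb2 shares 531 exon bases with AC114539.1 and 299 with Psd, both on the opposite strand and listed at no more than 1.23 FPKM, and use of strand in the counting is not given in the sources used here.

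Relb, the partner of p52, followed a course close to that of Nfkb2. It lies at chr7:19606217-19629438. Its 0 d samples held 1.92, 2.00, 2.31 and 1.74 FPKM, its 3 d samples 7.34, 5.91, 7.86 and 9.34 FPKM, and its 5 d samples 9.58, 10.7, 10.7 and 10.1 FPKM. The 5 d samples lay above all those of 3 d, and by 28 d the level had fallen to 2.58 to 4.00 FPKM, still above all samples of 0 d. The log2 change was 0.74 ± 0.11 at 1 d, 1.51 ± 0.11 by 3 d and 1.91 ± 0.11 at 5 d (limma adjusted p = 1.19e-14), and then 1.41 and 0.90 at 7 and 14 d. At 21 and 28 d it was 0.53 and 0.58, with adjusted p of 0.000164 and 4.07e-05, and both missed the 1.5-fold limit. The 28 d value passed it without sample 2 of 0 d (0.59), sample 3 of 0 d (0.63) or sample 3 of 28 d (0.69). Steps of 0.40 from 3 to 5 d, -0.51 from 5 to 7 d and -0.50 from 7 to 14 d passed the adjusted p but not 1.5-fold, and the rise from 1 to 3 d of 0.77 ± 0.11 passed both (adjusted p = 1.27e-06). Across the 32 samples Pearson's r of Nfkb2 with Relb was 0.931, above every other pair of either gene with a member whose mean was 1 FPKM or more, which leaves out Tnf.

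The largest log2 changes of the canonical subunits were below those of Nfkb2 and Relb, although the change of Rela was above that of Relb at 21 and 28 d (0.76 and 0.72) and above that of Nfkb2 at 1 d (0.66 against 0.57). Rela (chr19:5637483-5648130) held 8.62, 8.22, 8.85 and 8.53 FPKM at 0 d and 14.6, 11.9, 14.04 and 16.1 FPKM at 1 d. All 28 later samples, from 10.9 to 18.5 FPKM, lay above those of 0 d. Its log2 change was 0.61 to 0.82 across the 7 time points with a standard error of 0.10, and its highest mean, 15.9 ± 1.76 FPKM (SD), was at 14 d (limma adjusted p = 4.65e-08). At 3 d the change fell under 1.5-fold without sample 2 (0.57) or sample 3 (0.56) of that day. The call rested on the scale at every time point: after median-ratio scaling the log2 change of Rela was 0.29 to 0.49 and stayed under 1.5-fold, with adjusted p of 0.000262 or less.

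Nfkb1 (chr3:135584655-135691547), the source of p50, held 2.70, 2.97, 3.34 and 2.87 FPKM at 0 d and a highest mean of 4.22 ± 0.578 FPKM at 3 d. The log2 differences were 0.10 to 0.39 and none reached 1.5-fold, although the limma adjusted p was under 0.05 at 3, 5, 7, 14 and 28 d (0.00138 at 3 d). With TPM as the scale Nfkb1 was called higher at 3 d (0.60) and 7 d (0.59). After median-ratio scaling the differences ran from -0.13 to 0.21 and were negative at 14, 21 and 28 d. No direction over the whole course is therefore given for this gene. The ratio of Nfkb2 to Nfkb1 within each sample, in log2 of FPKM, was -0.14 ± 0.20 (SD, n = 4) at 0 d, 2.54 ± 0.10 at 5 d and 1.03 ± 0.03 at 28 d. Nfkb2 thus went from 0.909 times the level of Nfkb1 per length to 5.81 times at 5 d, and all samples from 3 d on lay above the 0 d range. The ratio of Relb to Rela went from -2.11 ± 0.16 at 0 d to -0.45 ± 0.08 at 5 d and was back at -2.20 ± 0.16 at 21 d and -2.09 ± 0.15 at 28 d, where it overlapped with 0 d. These ratios do not depend on the total of a sample and were not tested.

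**Figure D2:**
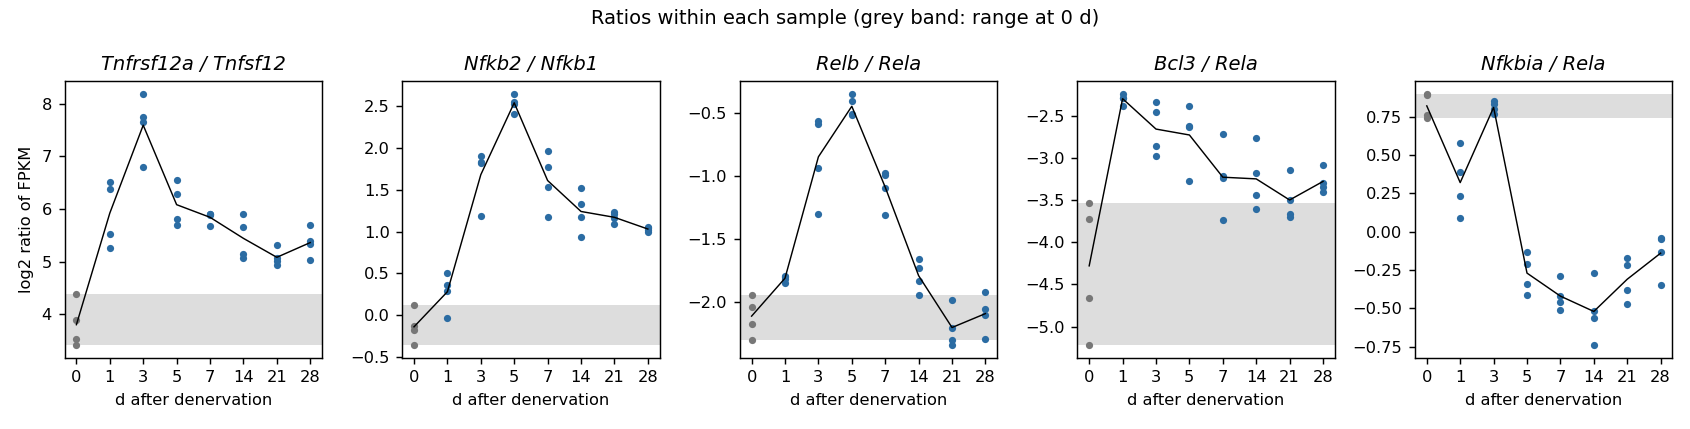
Log2 ratio of the FPKM of pairs of members within each sample (vertical axes) at 0 to 28 d (horizontal axis), with a line through the means of 4 samples and a grey band for the range at 0 d. Nfkb2 over Nfkb1 and Relb over Rela peak at 5 d at 2.54 and -0.45, and Nfkbia over Rela drops below the 0 d band at every time point but 3 d.

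Nfkbia, the inhibitor that NF-κB itself induces, moved in 2 directions. It lies at chr12:55489410-55492647. Its samples held 14.4, 13.9, 16.5 and 15.8 FPKM at 0 d and 15.6, 15.5, 16.4 and 23.9 FPKM at 1 d, which overlapped. At 3 d they held 19.0, 24.8, 26.8 and 25.2 FPKM, all above 0 d, and at 5 d 11.7, 10.8, 10.7 and 13.2 FPKM, all below 0 d. The step from 3 to 5 d fell by 0.98 on the log2 scale (limma adjusted p = 6.21e-07), with no overlap between these groups. The level stayed at 8.47 to 12.8 FPKM at 7 d, 9.89 to 12.8 FPKM at 14 d, 11.5 to 13.7 FPKM at 21 d and 12.2 to 14.9 FPKM at 28 d. Only the 28 d samples overlapped with those of 0 d among the time points from 5 d on.

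The rise of Nfkbia at 3 d was 0.62 ± 0.12 (limma adjusted p = 0.000113). It dropped under 1.5-fold without sample 2 of 0 d (0.58), without sample 3 of 3 d (0.56) or after median-ratio scaling (0.40). The differences at 5, 7 and 14 d were -0.36, -0.42 and -0.42 as deposited (adjusted p = 0.0169, 0.00512 and 0.00507), under 1.5-fold, whereas after median-ratio scaling they were -0.72, -0.78 and -0.80 and passed both criteria. Relative to Rela in the same sample, in log2 of FPKM, Nfkbia stood at 0.82 ± 0.08 at 0 d and 0.32 ± 0.21 at 1 d, returned to 0.81 ± 0.03 at 3 d and was lowest at 14 d, with -0.52 ± 0.19. All samples of 1 d and of 5 to 28 d lay below the 0 d range, and those of 3 d lay within it. The genes most like Nfkbia across the 32 samples were Tsc22d1 (r = 0.879), Ankrd9 (r = 0.875) and the pseudogene Rab7-ps1 (r = 0.855), and Ankrd9 went from 21.6 FPKM at 0 d to 31.0 FPKM at 3 d and 8.40 FPKM at 5 d.

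Bcl3, at a low level at 0 d, had its highest mean at 1 d. It lies at chr7:19808462-19822770 and shares 161 exon bases with the antisense gene Gm16175, listed at no more than 0.480 FPKM. At 0 d its samples held 0.656, 0.325, 0.768 and 0.229 FPKM, from 9 to 29 fragments, and at 1 d 2.99, 2.42, 2.68 and 3.40 FPKM, from 92 to 139 fragments. All 28 later samples, the lowest of which held 1.18 FPKM at 7 d, were above those of 0 d. The 1 d mean was 5.81 times that of 0 d, with a log2 change of 1.38 ± 0.15 (limma adjusted p = 3.68e-08), and from 3 to 28 d the successive changes were 1.10, 1.08, 0.81, 0.86, 0.67 and 0.77. The level at 28 d was below that at 1 d by 0.61 on the log2 scale (adjusted p = 0.00197), by 0.55 without sample 4 of 1 d and by 0.54 without sample 3 of 28 d, where it was under 1.5-fold. At 21 d the rise against 0 d was 0.58 without sample 4 of 0 d and 0.56 after median-ratio scaling, which ended that call. Neighbours in the order of its later means, from 1 d through 3, 5, 14, 7, 28 and 21 d, were not called different, while 21 d was called below 1 d (-0.72, limma adjusted p = 0.000404).

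**Figure D3:**
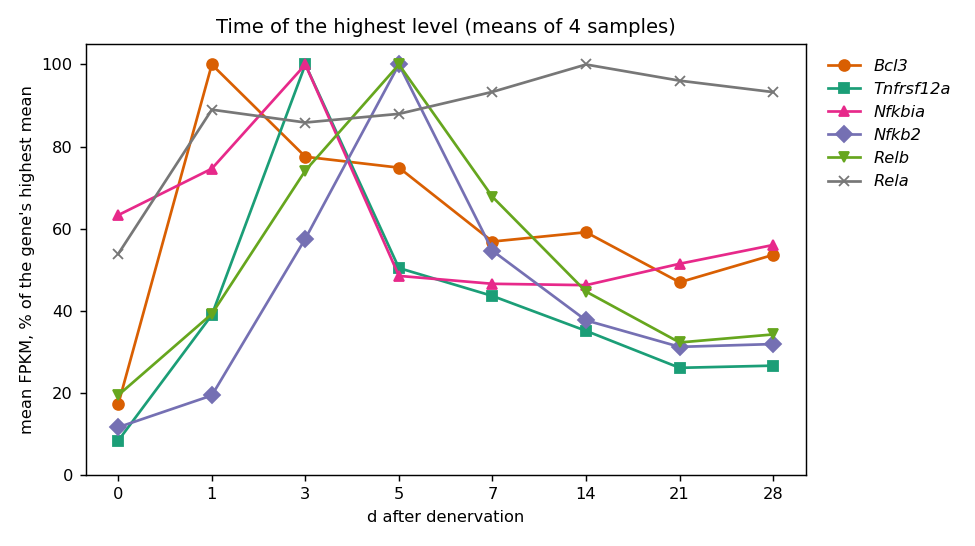
Mean FPKM of 4 samples as a percentage of each gene's highest mean (vertical axis, from 0) at 0 to 28 d (horizontal axis, spaced evenly) for Bcl3, Tnfrsf12a, Nfkbia, Nfkb2, Relb and Rela. The highest mean falls at 1 d for Bcl3, at 3 d for Tnfrsf12a and Nfkbia, at 5 d for Nfkb2 and Relb, and at 14 d for Rela, whose curve is flat after 1 d.

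The highest means of the members fell at different time points, and the steps between time points were tested for each gene. From 1 to 3 d, 3 members were called (Tnfrsf12a, Nfkb2 and Relb, all higher), while 10.6% of all genes were called in either direction. From 3 to 5 d, Nfkb2 was called higher and Tnfrsf12a and Nfkbia lower, against 5.76% of all genes. From 5 to 7 d Nfkb2 was called lower, against 0.657%, and at the steps from 7 to 14, 14 to 21 and 21 to 28 d no member was called by limma, against 0.634%, 0.453% and 0.199%. Of those 3 steps, unadjusted p was under 0.05 for Tnfrsf12a, Nfkb2 and Relb from 7 to 14 d and for Tnfrsf12a and Relb from 14 to 21 d, and limma-voom called Relb lower from 7 to 14 d and no member at the other 2. Over the longer interval from 7 to 28 d, Tnfrsf12a (-0.70), Nfkb2 (-0.66) and Relb (-0.82) were called lower (limma adjusted p = 0.00115, 0.0036 and 2.38e-06). The share of all genes called over that interval is not given here. Between 1 and 28 d Nfkb2 was called higher and Bcl3 lower, against 15.0% of all genes. For Nfkb2 the 5 d level was called above that of every other time point, and for Tnfrsf12a the 3 d level was, whereas for Bcl3 the level at 1 d was not called different from those at 3 d (-0.28, adjusted p = 0.184), 5 d (-0.31, adjusted p = 0.132), 7 d (-0.57, adjusted p = 0.00381) or 14 d (-0.53, adjusted p = 0.00718).

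**Figure D4:**
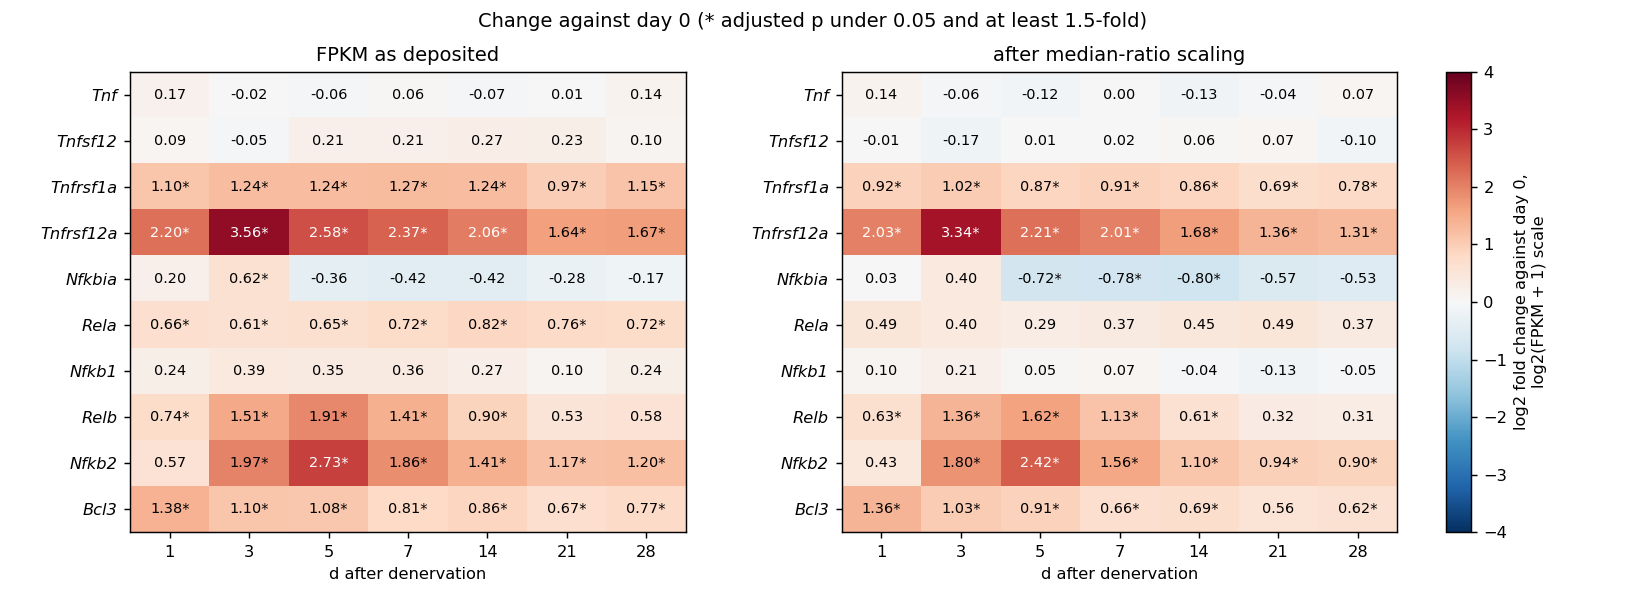
Log2 fold change of each member against 0 d (rows) at 1 to 28 d (columns), as deposited on the left and after median-ratio scaling on the right, with the value in each cell and a star where the adjusted p was under 0.05 and the change at least 1.5-fold. Tnfrsf1a, Tnfrsf12a and Nfkb2 keep their stars under both scales, Rela loses all 7 of its stars on the right, and Nfkbia gains stars as lower at 5, 7 and 14 d.

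Marker levels of other cells moved over the same days and are given beside these values. The summed level of 12 macrophage markers was 180 to 262 FPKM at 0 d, 289.7 to 445 FPKM at 1 d, 341 to 1218 FPKM at 3 d and 502 to 1450 FPKM at 7 d, with all 12 detected. That of 8 neutrophil markers was 1.30 to 2.30 FPKM at 0 d and 9.06 to 96.5 FPKM at 1 d, while Mpo, Elane and Camp, markers of immature neutrophils, stayed near 0. That of 8 Schwann cell markers went from 129 to 277 FPKM at 0 d to 20.8 to 54.5 FPKM at 3 d, and that of 8 markers of satellite cells and myoblasts went from 30.4 to 36.4 FPKM to 242 to 340 FPKM over the same interval, mostly through Myog and Myod1, which denervated fibres also express. The part of these cells in the changes of the members across days was not tested.

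Within a day, the members differed in how far they varied with marker levels from sample to sample. As deviations from the mean of each day on the log2 scale, over 32 samples, Pearson's r with the summed macrophage level was 0.79 for Bcl3, 0.75 for Tnfrsf1a, 0.75 for Nfkb1, 0.71 for Nfkbia and 0.60 for Rela. It was 0.38 for Tnfsf12, 0.36 for Tnf, 0.05 for Nfkb2, -0.09 for Tnfrsf12a and -0.11 for Relb. This pattern was not particular to macrophage markers. With the endothelial markers r was 0.83 for Nfkb1, 0.80 for Tnfrsf1a, 0.75 for Rela, 0.70 for Nfkbia and 0.54 for Bcl3, against 0.37 for Nfkb2, 0.26 for Relb and -0.22 for Tnfrsf12a. With markers of fibro-adipogenic progenitors it was 0.81 for Tnfrsf1a and 0.69 to 0.75 for Nfkb1, Rela, Nfkbia and Bcl3, against 0.15 or less for Nfkb2, Relb and Tnfrsf12a. With the fibre markers it was -0.55 for Tnfrsf1a, -0.50 for Rela, -0.42 for Nfkb1 and 0.18 for Tnfrsf12a. At 3 d the samples with 341, 633, 1147 and 1218 FPKM of macrophage markers held 22.5, 30.9, 35.4 and 38.4 FPKM of Tnfrsf1a in that order. The same samples held 157, 171, 171 and 148 FPKM of Tnfrsf12a. The points share libraries and scaling, and these coefficients are descriptions. Without sample 1 of 3 d alone, the same 7 members were called at 3 d, with log2 changes of 0.70 to 3.57. Without sample 4 of 1 d, sample 1 of 3 d and sample 3 of 7 d together, a choice made after the data were seen, the counts of members called against 0 d were 5, 7, 6, 6, 6, 5 and 5, as with all samples.

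Of the other genes of the pathway, 104 were tested. For comparison with the counts below, 25.7% of all genes tested were called higher and 8.19% lower at 1 or more of the 7 time points, or 33.2% in either direction. After median-ratio scaling these shares were 15.8% higher and 13.8% lower. With a pseudocount of 0.1, which weighs low genes more, they were 44.1% and 15.1%. Among 12 other ligands 1 was called, Tnfsf10 (TRAIL), which was lower at 3 d and went from 4.01 to 1.65 FPKM (log2 change -0.92 ± 0.10, limma adjusted p = 6.59e-09). With a pseudocount of 0.1, 6 of the 12 ligands were called higher. Of these, Tnfsf8 (CD30 ligand) and Tnfsf14 (LIGHT), named after their values were seen, had means under 1 FPKM. Tnfsf8 stood at 0.0600 FPKM at 0 d and 0.552 FPKM at 5 d (0.55 ± 0.09 on the log2(FPKM + 1) scale, adjusted p = 1.39e-05, and 2.07 ± 0.30 with the pseudocount of 0.1), and every later sample was above those of 0 d. Tnfsf14 stood at 0.0797 FPKM at 0 d, 0.488 FPKM at 1 d and 0.493 FPKM at 3 d, where all samples were above those of 0 d.

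Of 25 other receptors, 10 rose at some time point (25.7% of all genes), 2 of them at 1 d (6.34%), and Tnfrsf19, named after its values were seen, was called lower at all 7. After median-ratio scaling 8 rose (15.8% of all genes) and 2 were called lower (13.8%), Tnfrsf19 and Relt. Relt, also named after its values were seen, was among the 10 called higher as deposited. The largest rises were those of Eda2r, the receptor of an ectodysplasin form, from 8.47 to 117 FPKM at 3 d (3.64 ± 0.13, adjusted p = 3.59e-19), of Ngfr, the p75 neurotrophin receptor that Schwann cells of cut nerves carry, from 0.407 to 16.6 FPKM at 14 d (3.63 ± 0.35, adjusted p = 1.24e-09), and of Tnfrsf23, a decoy receptor for TRAIL, from 0.855 to 18.8 FPKM at 14 d (3.42 ± 0.13, adjusted p = 1.46e-18). Tnfrsf22 and Tnfrsf23 are close copies, so their reads could be split. Eda2r, like Tnfrsf12a, was highest at 3 d.

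Of 23 adaptors and kinases, 10 rose at some time point (25.7% of all genes), or 6 after median-ratio scaling (15.8%), and Tab2, named after its values were seen, was called lower at 21 and 28 d. Map3k14, the NIK kinase that starts p100 processing, had its largest change at 5 d, like Nfkb2 and Relb. It went from 1.21 FPKM at 0 d to 3.54 FPKM at 1 d, 4.82 FPKM at 3 d and 5.74 FPKM at 5 d (log2 change 1.61 ± 0.12, limma adjusted p = 7.48e-12). Map3k14 had fallen to 1.63 FPKM at 21 d and stood at 1.86 FPKM at 28 d (0.37 ± 0.12, adjusted p = 0.0117). It was called at neither, though all samples of both days lay above those of 0 d. Birc3, a ubiquitin ligase that limits NIK and a target of NF-κB, was highest at 3 d (1.19 ± 0.11, adjusted p = 1.72e-10), while Traf4 had its largest change at 28 d (1.19 ± 0.13, adjusted p = 2.07e-08). Traf2, Traf3 and Chuk, which limit or carry the NIK signal and were named after their values were seen, were called higher, Traf2 at 3, 5 and 7 d, Traf3 at 5 time points and Chuk at all 7.

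Of the 5 remaining subunits and IκB proteins, 3 rose (25.7% of all genes). Nfkbib (IκBβ) went from 9.76 to 27.2 FPKM at 3 d (log2 change 1.38 ± 0.11, limma adjusted p = 2.52e-11) and was still called at 14 d (0.92), so that it did not follow Nfkbia down at 5 d, when it stood at 26.9 FPKM. Rel (c-Rel) was called at all 7 time points with its largest change at 1 d (0.90 ± 0.10), and Nfkbiz passed at 3 d alone (0.62 ± 0.12). Nfkbie and Nfkbid, with log2 differences of 0.21 to 0.55 and 0.13 to 0.31, were not called on the log2(FPKM + 1) scale, and with a pseudocount of 0.1 both were called higher at some time point.

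Of 12 negative regulators, 7 were called at some time point, all higher (25.7% of all genes). Tnfaip3 (A20), a ubiquitin-editing enzyme and named after its values were seen, went the other way without passing 1.5-fold. It stood at 1.38 FPKM at 0 d and 0.763 FPKM at 3 d (-0.44 ± 0.10, limma adjusted p = 0.000969), with all samples from 3 d on below those of 0 d. It was called lower at 1, 3 and 7 d with a pseudocount of 0.1 (-0.81, -0.80 and -0.73) and at 3 and 7 d after median-ratio scaling (-0.59 and -0.62). Cyld, a deubiquitinase, had its largest change at 28 d, from 3.54 to 11.6 FPKM (log2 change 1.46 ± 0.08, limma adjusted p = 2.22e-15). Tnfaip8l2 was highest at 7 d (1.40 ± 0.25) and Zc3h12a, a ribonuclease that degrades inflammatory transcripts, at 3 d (1.31 ± 0.11). Of 27 known target genes of NF-κB, 17 rose and 4 fell at some time point, beside 25.7% and 8.19% of all genes. Of these genes 12 were called higher at 1 d (6.34% of all genes) and 5 at 28 d (14.2%). On the log2(FPKM + 1) scale the largest rises were at 1 d, for the chemokines Ccl7 (3.60 ± 0.48, adjusted p = 8.67e-07) and Ccl2 (2.64 ± 0.53, adjusted p = 0.000243) and for Junb (3.19 ± 0.15, adjusted p = 1.4e-15). By the ratio of means at 1 d, Cxcl5 (226 times, to 5.91 FPKM) and Cxcl2 (41.5 times, to 1.33 FPKM), named after their values were seen, stood above Ccl7 (32.4 times). Bcl3 had its highest mean at the same time point. The 4 target genes that fell, named after their values were seen, were Gadd45b, Sod2, Tnfaip2 and Nos2. The median log2 change of the target genes was 0.48 at 1 d and 0.28 at 28 d, beside 0.03 and 0.14 over all genes tested.

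**Figure D5:**
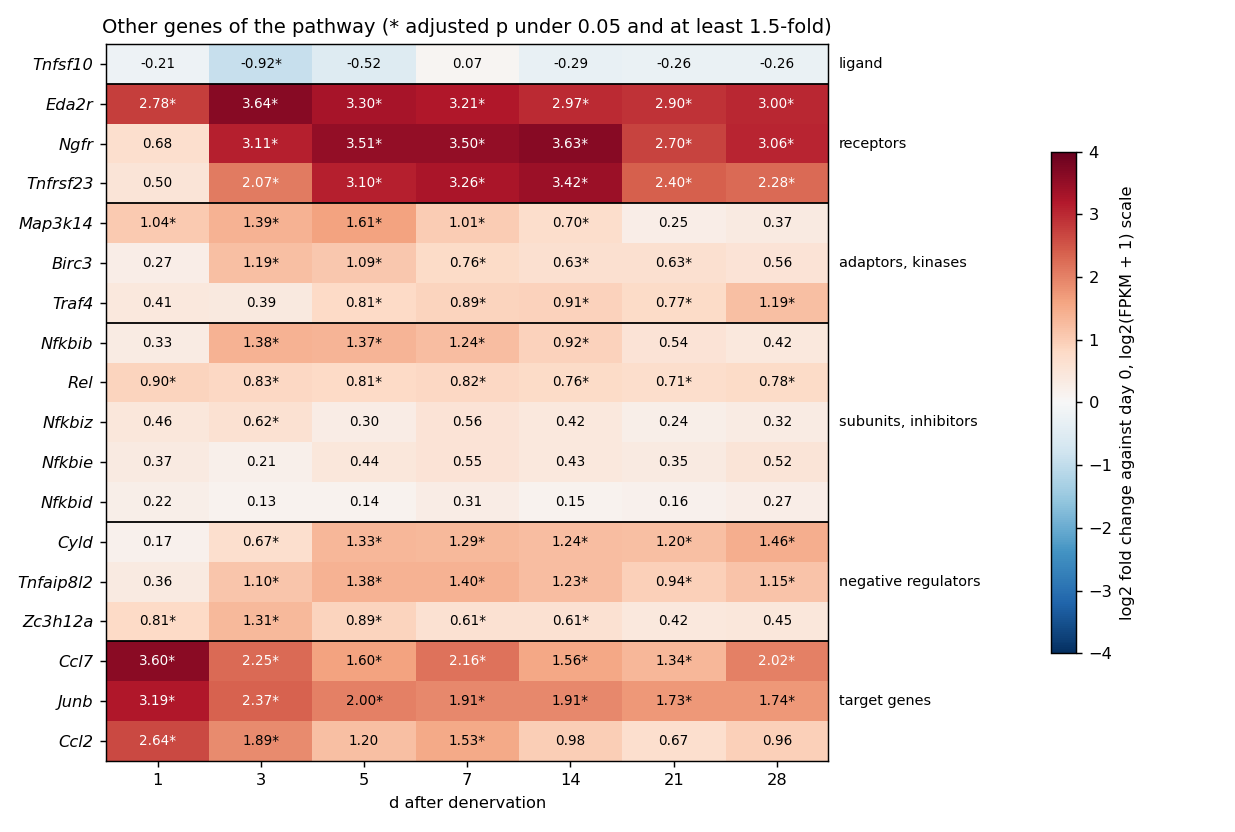
Log2 fold change against 0 d of the other pathway genes that the naming rule selected (rows, grouped by role) at 1 to 28 d (columns), with the value in each cell and a star where the adjusted p was under 0.05 and the change at least 1.5-fold. Map3k14 reaches 1.61 at 5 d and loses its star from 21 d on, Ccl7, Ccl2 and Junb are highest at 1 d, and Eda2r is at 2.78 or more at every time point.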

How the data were processed

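Total RNA of 32 GAS muscle samples was sequenced and the authors deposited FPKM values, fragments scaled to exon length and library total, for 33397 genes. The submitters' processing notes name HISAT2 2.1.0, CASAVA, DESeq2 and the GRCm38 build, with no roles, and strand use is not given in the sources used here. Columns were assigned to time points by their names. Symbols, exon lengths and positions came from GENCODE mouse release M21 (33356 genes matched, 41 not). With those lengths, 99.3% to 99.4% of values under 200 fragments came out whole (tolerance 0.05), which gave the recovered depth. That depth covers counting error only and is the limit for Tnf.

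A linear model of all 8 groups was fitted to log2(FPKM + 1) by limma (version 3.58.1, R version 4.3.3, moderated with a variance trend), over the 22071 genes that reached 0.1 FPKM in 4 or more samples. No count model was used on FPKM as the main test, and limma-voom on recovered fragments was an alternative. This fit was first tested on simulated data. Other steps used Python (3.11.15), scipy (1.17.1), pandas (2.3.3), numpy (2.4.6) and, for plots, matplotlib (3.10.9). Alternatives covered the pseudocount, filters, TPM, median-ratio and quantile scaling, the variance trend, the samples fitted, the thresholds and leaving out each sample.

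The members and lists were chosen with earlier results of these data known. Genes named were all members, the 3 called genes with the largest change per list, every other subunit or IκB gene, the 3 genes most like Tnfrsf12a, Nfkb2 and Nfkbia, and defining markers. Further genes that the text marks as named after their values were seen, and Tnfrsf22 as a close copy of Tnfrsf23, fall outside this rule. Those most like Nfkb2 were Syne1 (r = 0.957), Cdc42se2 (r = 0.951) and Zfp318 (r = 0.946). Promoters came from RefSeq. The summed levels of 9 T and B cell markers (at most 2.32 FPKM), 8 endothelial markers (64.1 to 133 FPKM) and 8 markers of fibro-adipogenic progenitors (323 to 982 FPKM) were also computed.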

Additional observations from a re-analysis of the deposited data

Results flagged for a closer look

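In 8 of the 80 groups of 4 samples (10 genes at 8 time points) the highest or lowest sample lay far from the other 3 by Dixon's 95% limit, where chance flags about 1 in 20 groups, or 4. For Tnf these were the highest sample of 1 d, at 0.961 FPKM, and the lowest of 21 d, at 0.0701 FPKM. For Nfkb1 they were the highest of 5 d (4.17 FPKM) and the lowest of 7 d (2.99 FPKM), 14 d (3.07 FPKM) and 28 d (3.24 FPKM). The others were the lowest sample of Rela at 7 d, at 12.0 FPKM, and the highest of Nfkbia at 1 d, at 23.9 FPKM. Sample 4 of 1 d gave both the Tnf and the Nfkbia value and had the highest summed neutrophil level (96.5 FPKM), and sample 3 of 7 d gave both the Nfkb1 and the Rela value and had the lowest summed macrophage level of its day (502 FPKM). The part of those cells was not tested.

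The change against 0 d differed between time points by limma's test of the difference itself for 5 members. On the log2 scale, the change at 3 d exceeded that at 1 d by 1.36 for Tnfrsf12a, 1.40 for Nfkb2 and 0.77 for Relb. The change at 5 d minus that at 3 d was -0.98 for Tnfrsf12a, 0.77 for Nfkb2 and -0.98 for Nfkbia. For Nfkb2 the change at 7 d minus that at 5 d was -0.87 and that at 28 d minus that at 1 d was 0.63, while for Bcl3 the latter was -0.61.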

How the results depend on the processing

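No paired analysis was possible because the columns carry numbers or letters that are tied to no sample of another time point. Tnfrsf1a and Tnfrsf12a kept their calls at all 7 time points, as did Nfkb2 from 3 d and Relb from 1 to 14 d, under every alternative. The count of members called at 21 d went from 5 to 3 after median-ratio scaling and after quantile normalization, and at 28 d from 5 to 3 after quantile normalization, since Rela and Bcl3 fell under 1.5-fold. From 5 to 7 d the count of 1 became 0 with only the 2 groups fitted and 2 with the adjusted p alone. From 7 to 14 d it went from 0 to 1 with the adjusted p alone, and with limma-voom, through Relb, and without the 3 libraries named in the text, through Nfkb2. Between 1 and 28 d it went from 2 to 4 with the adjusted p alone. Leaving out 1 sample gave 5 to 6 members at 1 d, 5 to 7 at 3 d, 6 to 6 at 5, 7 and 14 d, 4 to 5 at 21 d and 5 to 6 at 28 d, and 3 to 3, 3 to 3, 1 to 1, 0 to 1, 0 to 0 and 0 to 0 for the successive steps from 1 d on, and 1 to 2 between 1 and 28 d. The step from 7 to 14 d gained Nfkb2 without sample 3 of 7 d, and between 1 and 28 d Nfkb2 was lost without sample 2 of 1 d and Bcl3 without sample 3 of 28 d. Without sample 4 of 1 d Bcl3 was lost (-0.55) and Tnfrsf12a was gained as lower at 28 d (-0.62, limma adjusted p = 0.00208).

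Of the 104 other pathway genes tested, 21, 38, 36, 33, 31, 27 and 30 were called at 1, 3, 5, 7, 14, 21 and 28 d. At 1, 7, 14, 21 and 28 d the counts were 42, 55, 52, 42 and 53 with a pseudocount of 0.1 and 37, 56, 54, 43 and 50 with TPM. The shares of all genes moved too: with the pseudocount of 0.1, 11.3% were called higher and 5.11% lower at 1 d, against 6.34% and 2.49%, and 26.7% and 6.32% at 28 d, against 14.2% and 4.10%. With limma-voom the pathway counts were 41, 56, 53 and 55 at 1, 7, 14 and 28 d. Under median-ratio scaling 19 pathway genes were called at 28 d. Calls over all genes moved as well. At 28 d limma-voom called 5949 genes higher and 1424 lower, and TPM 6320 and 896, against 3143 and 906 as deposited. Median-ratio scaling gave 1450 higher (6.57%) and 1789 lower (8.11%) on that day. With the adjusted p alone the pathway counts were 51, 60, 60, 66, 64, 55 and 65, and the share of all genes is not given here. Leaving out 1 sample gave 16 to 22, 33 to 40, 35 to 38, 32 to 39, 29 to 33, 25 to 27 and 29 to 33.

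Signs turned only for differences that were not called. With TPM these were Tnf (0.02) and Tnfsf12 (0.04) at 3 d. After median-ratio scaling they were Tnfsf12 at 1 d (-0.01) and 28 d (-0.10), Nfkb1 at 14, 21 and 28 d (-0.04, -0.13 and -0.05) and Tnf at 21 d (-0.04). After quantile normalization they were Tnf at 7 and 21 d (-0.03 and -0.07), Nfkb1 at 14, 21 and 28 d (-0.05, -0.13 and -0.07) and Tnfsf12 at 28 d (-0.13). Without the 3 libraries they were Tnf at 1 d (-0.01) and 3 d (0.04). Leaving out 1 sample gave Tnf -0.01 to 0.27 at 1 d, -0.08 to 0.05 at 3 d, -0.12 to 0.01 at 5 d and -0.05 to 0.08 at 21 d, and Tnfsf12 -0.16 to 0.03 at 3 d. With a pseudocount of 0.1, TPM or limma-voom, Nfkb2 at 1 d and Relb at 21 and 28 d also passed 1.5-fold. With TPM, Nfkb1 at 3 d (0.60) and 7 d (0.59) passed it too. Depth limits Tnf, Tnfsf12 and, at 0 d, Bcl3, which rest on few fragments.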
